A study of Homo sapiens with 23 samples.

Results

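The transcripts followed here belong to glucose uptake, glycolysis and the cellular response to low oxygen, in 2 acute myeloid leukemia (AML) cell lines exposed to CIGB-300. A list of 35 genes was searched among the probe sets that the platform annotation ties to a single gene symbol, and 31 of them were measured, with 1 probe set each. PFKFB4, SLC16A1, SLC16A3 and CA9 matched no such probe set and were not analysed here. The 31 genes stand among 17687 named genes and 21448 probe sets tested, and no filter on low values was applied.

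CIGB-300 is a synthetic peptide that carries a cell-penetrating sequence and inhibits protein kinase CK2, and the study asked how it changes the transcriptome of AML cells over time. HL-60 and OCI-AML3, both established human AML lines, were cultured with 40 μM CIGB-300 or left untreated, and RNA was taken after 30 min or 3 h and hybridised to Clariom S HT arrays. The 8 groups are therefore HL-60 cells with CIGB-300 for 30 min or 3 h, untreated HL-60 cells of both times, and the same 4 groups of OCI-AML3 cells. Each group held 3 arrays, described by the study as biological replicates, but the untreated OCI-AML3 group of 30 min held 2, replicate 1 having been removed by the authors. For untreated OCI-AML3 cells at 3 h, the 3 sample titles read 30 h whereas the time label reads 3 h, and the label was followed. The labels name no vehicle or control peptide for the untreated cells, each disease model here is a single established line, and culture oxygen is not given in the sources used here. In RNA of whole cultures, fewer cells expressing a gene and less RNA per cell cannot be told apart.

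Values are log2 signals after background correction, quantile normalization and summarisation by RMA, so a difference of 1 is a doubling. They ran between 1.07 and 13.98 over all arrays. HL-60 arrays had medians of 5.38 to 5.44, OCI-AML3 arrays of 5.52 to 5.60, and replicate arrays of a group varied with a median SD per probe set of 0.124 to 0.177. Of the 8 myeloid markers measured, 8 lay above the array median in HL-60 and 7 in OCI-AML3; CEBPE averaged 9.22 in HL-60 and 4.26 in OCI-AML3. MPO averaged 13.07 in HL-60 and 6.07 in OCI-AML3. Of 5 lymphoid markers, CD79A at 10.71 in HL-60 alone lay above the array median, and in OCI-AML3 none did. Of 4 erythroid markers 1 (EPOR) and of 6 stromal and epithelial markers 2 (COL1A2 and KRT8) did so in each line, and MEIS1, a partner of HOX proteins, averaged 3.53 in HL-60 and 7.78 in OCI-AML3. A call below means a Benjamini-Hochberg adjusted p under 0.05 from limma over all 21448 probe sets, and errors of differences are standard errors (SE).

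Glucose enters blood cells by facilitated transport through the GLUT carriers, of which GLUT1 (SLC2A1) and GLUT3 (SLC2A3) are the widely expressed and the high-affinity forms. Hexokinases trap it as glucose 6-phosphate, phosphofructokinase commits it to glycolysis, and lactate dehydrogenase turns pyruvate into lactate. When oxygen is low, the prolyl hydroxylases no longer mark the transcription factor subunit HIF1A for destruction, and HIF1 then binds short hypoxia response elements and raises many of these genes together. Leukemia cells are known for running glycolysis also in the presence of oxygen.

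The core letters of a hypoxia response element, ACGTG or GCGTG, were searched on both strands of RefSeq promoter windows (GRCh38.p14, 250 bases before to 50 after a gene's start), so that the reverse complements CACGT and CACGC count as well and CACGTG counts on both strands. Windows were found for 28 of the 31 genes, and SLC2A3, BNIP3L and NDRG1 had none in the table. The letters occurred in 35 of the 52 windows of these genes (67.3%), against 48.4% of all 35116 windows, a description only, since letters are no evidence of binding. Counted per gene, with any of its windows, 26 of 28 (92.9%) held them, against 52.4% of 27305 genes. EGLN3 and PGAM1 were the 2 without them. A count over any window grows with the number of windows of a gene. The 28 genes had 52 windows, with 7 each for HK1 and PFKM, whereas the 27305 genes had 35116. The 2 per-gene shares are therefore not like for like. The following 5 windows are shown because SLC2A1 and ADM are called below and have a window, whereas BNIP3, ANKRD37 and PGK1 are hypoxia targets with several copies of the letters that were not called in any comparison with CIGB-300. EGLN1, GPI, PFKL and PKM, which were also not called with CIGB-300, held 1 match in their window. The 5 windows chosen therefore do not relate the number of matches to the calls. Capitals mark the searched letters.
SLC2A1, chr1:42958819-42959118, minus strand, 1 match: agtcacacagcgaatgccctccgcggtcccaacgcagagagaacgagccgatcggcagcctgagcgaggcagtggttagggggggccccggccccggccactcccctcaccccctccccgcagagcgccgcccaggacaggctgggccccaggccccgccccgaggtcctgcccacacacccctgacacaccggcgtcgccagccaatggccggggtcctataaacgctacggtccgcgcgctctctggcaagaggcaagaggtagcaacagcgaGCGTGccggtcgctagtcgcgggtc
ADM, chr11:10304823-10305122, plus strand, 1 match: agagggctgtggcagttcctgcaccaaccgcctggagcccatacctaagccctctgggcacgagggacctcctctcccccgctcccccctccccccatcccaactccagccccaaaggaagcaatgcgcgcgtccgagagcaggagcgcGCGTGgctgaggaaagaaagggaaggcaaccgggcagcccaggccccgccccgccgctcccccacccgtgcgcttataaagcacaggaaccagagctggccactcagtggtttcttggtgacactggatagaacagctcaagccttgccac
BNIP3, chr10:131981874-131982173, minus strand, 6 matches: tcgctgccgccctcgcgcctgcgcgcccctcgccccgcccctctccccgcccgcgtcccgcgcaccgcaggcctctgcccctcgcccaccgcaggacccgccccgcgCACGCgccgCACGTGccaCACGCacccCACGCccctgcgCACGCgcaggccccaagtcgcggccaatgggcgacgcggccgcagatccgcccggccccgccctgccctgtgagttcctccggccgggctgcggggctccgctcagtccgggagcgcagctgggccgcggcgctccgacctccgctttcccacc
ANKRD37, chr4:185396591-185396890, plus strand, 3 matches: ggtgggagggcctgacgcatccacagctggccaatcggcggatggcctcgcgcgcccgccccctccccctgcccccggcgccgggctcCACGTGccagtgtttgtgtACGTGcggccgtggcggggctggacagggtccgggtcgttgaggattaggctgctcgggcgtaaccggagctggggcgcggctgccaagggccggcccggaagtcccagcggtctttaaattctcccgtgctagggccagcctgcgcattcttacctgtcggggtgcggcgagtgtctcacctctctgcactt
PGK1, chrX:78103998-78104297, plus strand, 4 matches: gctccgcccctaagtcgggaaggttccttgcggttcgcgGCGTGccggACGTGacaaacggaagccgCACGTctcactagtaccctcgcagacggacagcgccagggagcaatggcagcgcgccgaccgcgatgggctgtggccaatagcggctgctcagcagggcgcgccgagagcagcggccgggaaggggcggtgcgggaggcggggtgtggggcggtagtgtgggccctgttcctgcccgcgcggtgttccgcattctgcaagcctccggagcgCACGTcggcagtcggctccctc

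CIGB-300 moved few of these genes, and the 2 glucose transporters accounted for most of the calls. In HL-60 at 30 min, 2 of 31 were called, SLC2A3 higher and ADM lower, where 0.345% of all probe sets were called. In HL-60 at 3 h, 2 of 31 were called, SLC2A3 higher and BNIP3L lower, a share of 6.45% that lies near the 5.57% of all probe sets. In OCI-AML3 at 30 min none was called (limma, 0.182% of all probe sets), although 2 genes had an unadjusted p under 0.05 (6.56% of all probe sets). The study called a gene differentially expressed at an unadjusted p under 0.01 with a fold change of at least 1.5, and 2 of the 31 met this in HL-60 at 30 min (0.877% of all probe sets), SLC2A3 and ADM, 1 in HL-60 at 3 h (3.87%), SLC2A3, and 0 in OCI-AML3 at 30 min (1.07%). In OCI-AML3 at 3 h, 2 of 31 were called, SLC2A3 higher and SLC2A1 lower, against 0.974% of all probe sets. Of these SLC2A1 alone met the thresholds of the study (1.6% of all probe sets), since SLC2A3 changed by less than 1.5-fold.

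The typical gene of the set differed between CIGB-300 and untreated cells by about as much as the typical probe set of the array, or less. The median absolute log2 difference in HL-60 was 0.103 for the set against 0.116 for all probe sets at 30 min, and 0.093 against 0.162 at 3 h. For OCI-AML3 it was 0.094 against 0.13 at 30 min, then 0.131 against 0.138 at 3 h. Of the 31 genes, 28 lie among the brighter probe sets, whereas the medians of all probe sets include the dim ones. No comparison with brighter probe sets alone was made here, so the medians do not show that the set responded less. Arrays of treated and untreated cells did not overlap for 7 of 31 genes in HL-60 at 30 min (12.4% of all probe sets) and for 8 in HL-60 at 3 h (21.5%). They did not overlap for 13 in OCI-AML3 at 30 min (24.1%, with 2 untreated arrays) and for 8 in OCI-AML3 at 3 h (16.0%).

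**Figure D1:**
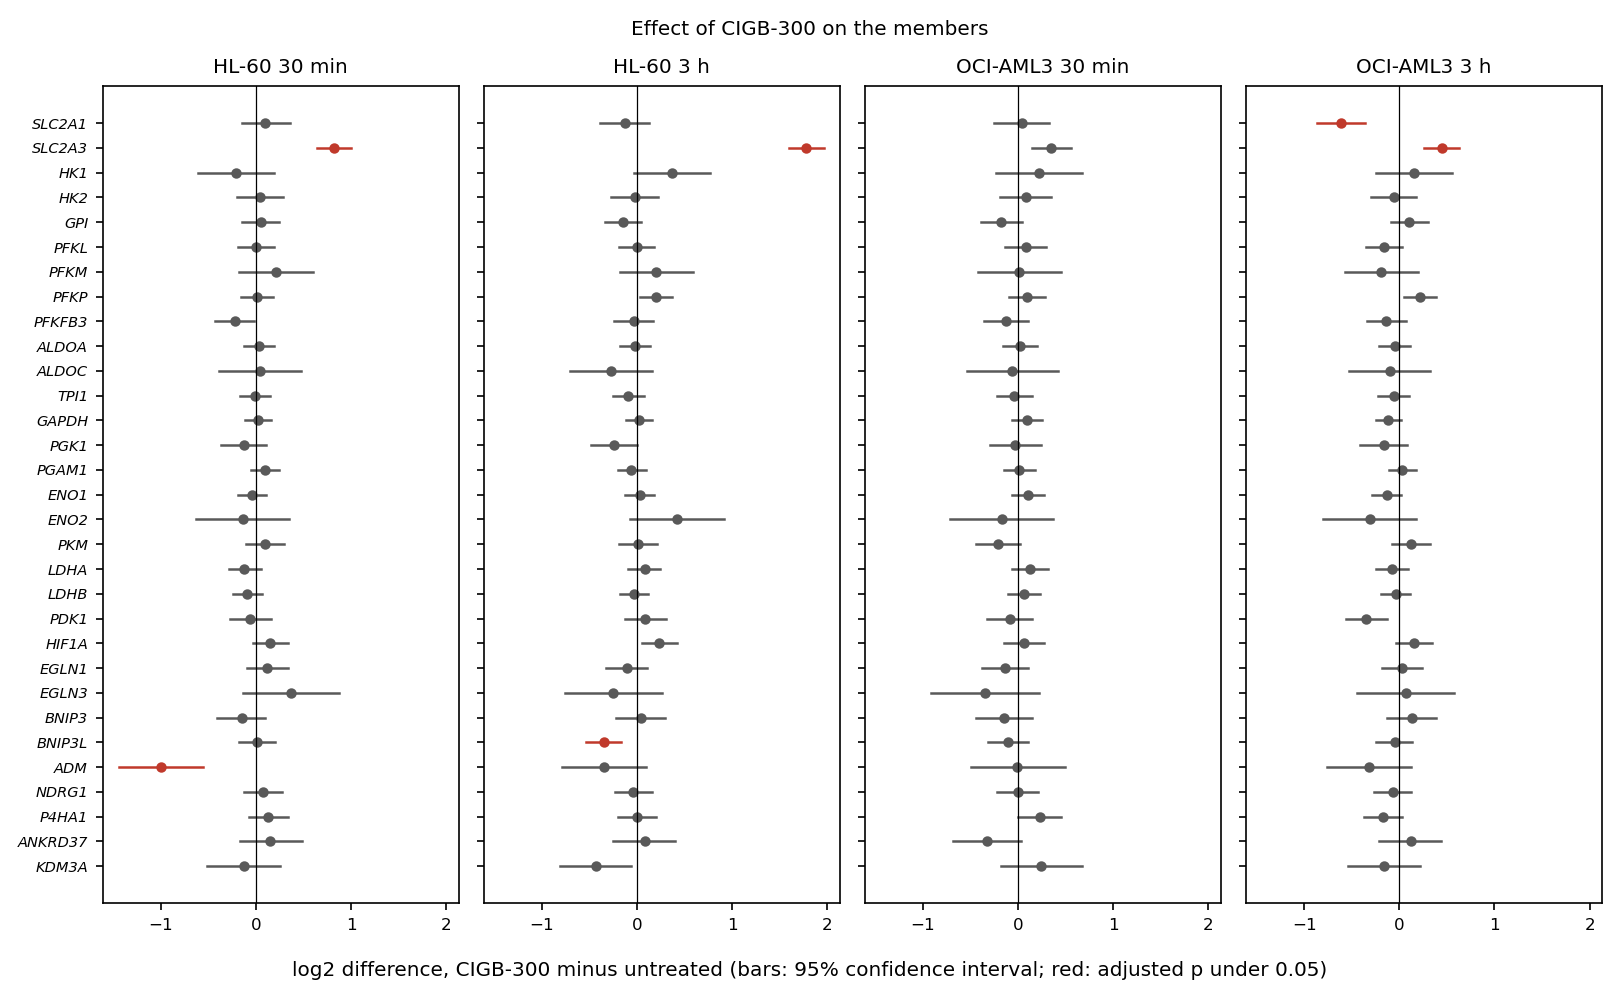
Log2 difference of each of the 31 measured genes, CIGB-300 minus time-matched untreated cells, in the 4 comparisons (HL-60 30 min, HL-60 3 h, OCI-AML3 30 min, OCI-AML3 3 h). Points are limma estimates, bars are 95% confidence intervals and red marks an adjusted p under 0.05; SLC2A3 in HL-60 at 3 h, at 1.78, lies farthest from 0.

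SLC2A3 encodes GLUT3, a high-affinity glucose carrier. In HL-60 at 30 min its level was 8.79, 8.72 and 8.76 with CIGB-300, against 7.87, 7.87 and 8.05 in untreated cells. Every treated array lay above every untreated one, with a log2 difference of 0.82 ± 0.0863 (SE, 1.77-fold, adjusted p = 1.74e-05, limma). In HL-60 at 3 h the values were 9.26, 9.37 and 9.48 with CIGB-300, against 7.67, 7.54 and 7.56 in untreated cells. The difference there was 1.78 ± 0.0863 (3.43-fold, adjusted p = 7.27e-11), and again no arrays overlapped. In OCI-AML3 at 30 min SLC2A3 read 8.83, 9.02 and 9.01 with CIGB-300, against 8.55 and 8.65 in untreated cells, which was 0.35 ± 0.0965 higher but was not called (adjusted p = 0.296). At 3 h SLC2A3 also rose in OCI-AML3, by 0.45 ± 0.0863 (1.36-fold, adjusted p = 0.0144), with 8.86, 9.01 and 9.02 in treated cells, against 8.54, 8.49 and 8.53 in untreated cells.

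The response of SLC2A3 was larger in HL-60 than in OCI-AML3 at 3 h. The difference between the lines' effects was 1.33 ± 0.122 on the log2 scale (adjusted p = 2.35e-06), and SLC2A3 alone of the 31 was called in this contrast (1.24% of all probe sets). At 30 min the corresponding value was 0.47 ± 0.129 (adjusted p = 0.335) and none of the 31 was called (0.0746% of all probe sets), with 3 genes at an unadjusted p under 0.05 (7.02%) and 1, ADM, past the thresholds of the study (1.39%). Within HL-60 the effect on SLC2A3 at 3 h exceeded that at 30 min by 0.96 ± 0.122 (adjusted p = 0.000162), and it alone of the 31 was called (1.49% of all probe sets). At 3 h treated HL-60 cells averaged 9.37 ± 0.11 and untreated ones 7.59 ± 0.07, and at 30 min treated cells averaged 8.75 ± 0.03 and untreated ones 7.93 ± 0.10 (SD, n = 3 each), so treated cells stood higher at 3 h and untreated cells lower. In OCI-AML3 the change of the effect between the times was 0.09, and no gene of the set was called there (limma, 0.0699% of all probe sets), with 4 at an unadjusted p under 0.05 (9.81%) and 1, SLC2A1, past the thresholds of the study (2.18%).

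The calls for SLC2A3 in HL-60 at both times, and for its differences between lines and times, held when each array was left out in turn and under every other setting tried. The call in OCI-AML3 at 3 h did not. It was lost when only OCI-AML3 arrays were fitted (adjusted p = 0.0979) and without treated replicate 2 (0.0576), treated replicate 3 (0.0764) or untreated replicate 2 (0.0656), with a range of 0.0176 to 0.0764 over the arrays left out and of 0.00265 to 0.0979 over the other settings. SLC2A14 (GLUT14) is a near-identical copy of SLC2A3, and probes of the 2 genes may share signal. Its probe set rose in HL-60 at 3 h by 1.41 ± 0.154 (adjusted p = 6.84e-06), with 9.73, 9.47 and 9.59 in treated cells, against 8.43, 7.76 and 8.39 in untreated cells. At 30 min SLC2A14 read 8.99, 9.26 and 8.99 in treated HL-60 cells, against 8.20, 8.66 and 8.35 in untreated ones, a difference of 0.68 ± 0.154 (adjusted p = 0.0839). In OCI-AML3 at 30 min it read 9.27, 9.34 and 9.46 with CIGB-300, against 8.89 and 8.68 in untreated cells (0.57 ± 0.172, adjusted p = 0.403), so the SLC2A14 arrays did not overlap in either line at this time but no call was made. The SLC2A14 difference in OCI-AML3 at 3 h was 0.12 ± 0.154 (adjusted p = 0.849), and its difference between lines at 3 h was 1.29 ± 0.218 (adjusted p = 0.0031).

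**Figure D2:**
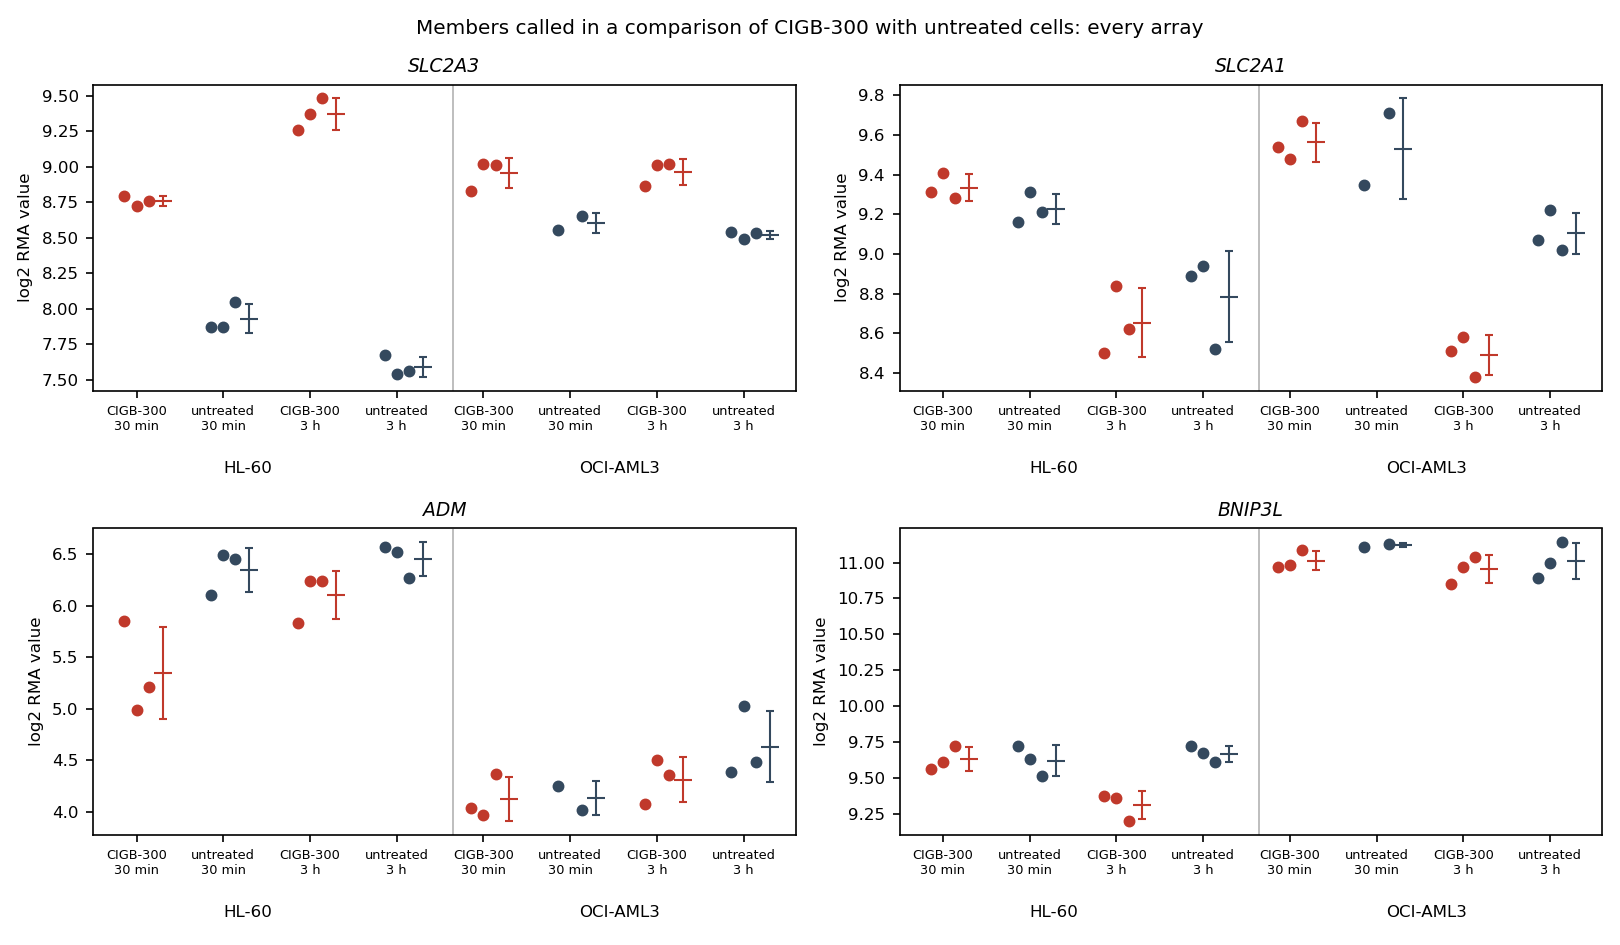
Log2 level on every array for the 4 genes called in a comparison of CIGB-300 (red) with untreated cells (dark), with group means and SD as bars; HL-60 groups lie left of the line and OCI-AML3 groups right of it. SLC2A3 arrays with CIGB-300 lie above untreated arrays in all 4 comparisons, and the level axes do not start at 0.

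SLC2A1 encodes GLUT1, the basal glucose carrier of most cells. In OCI-AML3 at 3 h it read 8.51, 8.58 and 8.38 with CIGB-300, against 9.07, 9.22 and 9.02 in untreated cells. All treated arrays lay below all untreated ones, and SLC2A1 fell by 0.61 on the log2 scale (SE 0.122, 1.53-fold, adjusted p = 0.0185, limma). In HL-60 at 3 h the values were 8.50, 8.84 and 8.62 with CIGB-300, against 8.89, 8.94 and 8.52 in untreated cells, and the groups overlapped (difference -0.13). At 30 min the difference was 0.10 in HL-60 and 0.04 in OCI-AML3. The 2 carriers thus moved in opposite directions in OCI-AML3 at 3 h. The SLC2A1 effect in HL-60 minus that in OCI-AML3 at 3 h was 0.48 ± 0.173 and was not called (adjusted p = 0.258). The call in OCI-AML3 was lost when only OCI-AML3 arrays were fitted (adjusted p = 0.0685) and without treated replicate 1 (0.0596), treated replicate 3 (0.091), untreated replicate 1 (0.0543) or untreated replicate 2 (0.0924); over the arrays left out it ranged from 0.0321 to 0.0924, and over the other settings from 0.000659 to 0.0685.

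The 17 core enzymes from hexokinase to lactate dehydrogenase (HK1, HK2, GPI, PFKL, PFKM, PFKP, ALDOA, ALDOC, TPI1, GAPDH, PGK1, PGAM1, ENO1, ENO2, PKM, LDHA and LDHB) gave no call in any of the 4 comparisons with CIGB-300. HL-60 log2 differences ran between -0.21 and 0.21 at 30 min (lowest adjusted p 0.891) and between -0.27 and 0.42 at 3 h (0.194). OCI-AML3 differences ran between -0.21 and 0.22 at 30 min (0.8) and between -0.31 and 0.22 at 3 h (0.287). With trend and robust variance settings, PFKP was called in HL-60 at 3 h. The 95% confidence interval stayed within a 1.5-fold change either way for 14 of the 17 enzymes in HL-60 at 30 min, 13 at 3 h, 15 in OCI-AML3 at 30 min and 16 at 3 h. Changes of array signal of that size therefore lay outside the interval for most of them. For genes of the NF-kB pathway the study reported larger rises by qPCR than on the array. ENO2, the neuronal enolase and a dim probe set at 4.18 to 5.33, had a wider interval in all 4 comparisons, HK1 in 3, PFKM in both HL-60 comparisons and ALDOC in HL-60 at 3 h.

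At the top of the pathway, HK2, a hexokinase that binds mitochondria and is raised in many tumors, read 8.14, 8.33 and 8.28 in HL-60 at 3 h with CIGB-300, against 8.10, 8.41 and 8.31 in untreated cells. OCI-AML3 cells at 3 h read 7.77, 7.80 and 7.72 with CIGB-300, against 7.88, 7.56 and 8.04 in untreated cells. The groups overlapped in both lines. PFKP, the platelet form of phosphofructokinase, had the lowest p of the core enzymes in both lines at 3 h. In OCI-AML3 it read 11.16, 11.19 and 11.25 with CIGB-300, against 10.95, 10.98 and 11.01 in untreated cells. The difference was 0.22 ± 0.0806 (adjusted p = 0.287), and that of HL-60 at 3 h 0.20 ± 0.0806 (adjusted p = 0.194). PFKFB3, which makes the phosphofructokinase activator fructose 2,6-bisphosphate, differed by -0.22 ± 0.0980 in HL-60 at 30 min (adjusted p = 0.751). It was not called at 3 h in either line.

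In the lower pathway, GAPDH, a reference gene of the study's qPCR, spanned 0.241 on the log2 scale over the 23 arrays, between 12.97 and 13.21. ALDOA had a range of 0.232 and PFKL of 0.29. Several of these enzymes, GAPDH, PGK1 and LDHA among them, have processed pseudogenes in the genome, and PGAM1 has the close copy PGAM4, so their probe sets may hold some signal of copies. LDHA, the lactate dehydrogenase subunit that favours lactate, read 12.06, 12.15 and 12.14 in HL-60 at 3 h with CIGB-300, against 11.99, 12.13 and 12.00 in untreated cells. OCI-AML3 cells at 3 h read 12.17, 12.27 and 12.24 with CIGB-300, against 12.30, 12.37 and 12.26 in untreated cells. Treated and untreated arrays overlapped in both lines. PDK1, the kinase that closes pyruvate dehydrogenase and so keeps pyruvate in the cytosol, differed by -0.35 ± 0.102 in OCI-AML3 at 3 h, where treated cells read 8.39, 8.30 and 8.32, against 8.69, 8.50 and 8.86 in untreated cells. No arrays overlapped, but the adjusted p was 0.151.

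Of the oxygen sensors, none was called with CIGB-300. HIF1A, the regulated subunit of HIF1, read 8.52, 8.49 and 8.46 in HL-60 at 3 h with CIGB-300, against 8.11, 8.33 and 8.32 in untreated cells. The difference of 0.23 ± 0.0892 had an adjusted p of 0.161. These are mRNA levels, and HIF1A is controlled mainly through the stability of its protein. EGLN1 and EGLN3, prolyl hydroxylases that mark HIF1A, differed by 0.37 at most, in EGLN3 in HL-60 at 30 min, whose probe set was dim throughout at 2.48 to 3.76.

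Among 7 hypoxia targets (BNIP3, BNIP3L, ADM, NDRG1, P4HA1, ANKRD37 and KDM3A), 1 fell at each time in HL-60 and none was called in OCI-AML3. ADM encodes adrenomedullin, a secreted vasodilator peptide. In HL-60 at 30 min it read 5.85, 4.99 and 5.21 with CIGB-300, against 6.10, 6.49 and 6.45 in untreated cells. It fell by 1.00 on the log2 scale (SE 0.210, 2.0-fold, adjusted p = 0.0465), with no overlap and the widest spread of the 4 called genes (SD 0.44 in treated cells). In HL-60 at 3 h the difference was -0.35 ± 0.210 (adjusted p = 0.424), with 5.83, 6.24 and 6.24 in treated cells, against 6.57, 6.52 and 6.27 in untreated cells. In OCI-AML3 the ADM probe set stayed below the array median, at 3.97 to 5.03. The effect in HL-60 minus that in OCI-AML3 at 30 min was -0.99 ± 0.315 (adjusted p = 0.469). The call for ADM was lost when only HL-60 arrays were fitted (adjusted p = 0.168), with the replicate number as a block (0.0917), and without treated replicate 2 (0.228), treated replicate 3 (0.206), untreated replicate 1 (0.0506), untreated replicate 2 (0.215) or untreated replicate 3 (0.184). Over the arrays left out the adjusted p ran from 0.00504 to 0.228, and over the other settings from 0.0273 to 0.168.

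BNIP3L (NIX) is a mitophagy receptor of the outer mitochondrial membrane. In HL-60 at 3 h it read 9.37, 9.36 and 9.20 with CIGB-300, against 9.72, 9.67 and 9.61 in untreated cells. It fell by 0.35 (SE 0.0897, 1.28-fold, adjusted p = 0.024), without overlap. BNIP3L of OCI-AML3 cells at 3 h read 10.85, 10.97 and 11.04 with CIGB-300, against 10.89, 11.00 and 11.14 in untreated cells, and the difference of the effects between lines, -0.30 ± 0.127, was not called (adjusted p = 0.368). The call was lost when only HL-60 arrays were fitted (adjusted p = 0.0728) and without treated replicate 3 (0.117), untreated replicate 1 (0.089) or untreated replicate 2 (0.069); the adjusted p ranged from 0.0369 to 0.117 over the arrays left out and from 0.00139 to 0.0728 over the other settings. Its relative BNIP3, which acts in the same process, read 9.01, 9.35 and 9.17 in HL-60 at 3 h with CIGB-300, against 9.19, 9.08 and 9.14 in untreated cells, so the groups overlapped. KDM3A, a histone demethylase, differed by -0.43 ± 0.180 in HL-60 at 3 h, with every treated array below every untreated one (adjusted p = 0.203).

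Other genes of these pathways, from 4 further lists, were set beside the 31. The alternative settings and the fits without single arrays were read for the 31 genes only. Calls of the further lists come from the single model of all 23 arrays, and their dependence on the setting was not examined. Of 31 measured genes of 33 in a list of other glycolysis and sugar or lactate transport genes, 3 were called higher in HL-60 at 3 h (2.62% of all probe sets) and none in the other comparisons with CIGB-300. These were SLC2A14, SLC2A6 (GLUT6, a lysosomal carrier), which averaged 5.42 with CIGB-300 and 4.58 in untreated cells (difference 0.84 ± 0.217), and PGM2, a phosphoglucomutase (0.28 ± 0.0747). The untreated SLC2A6 arrays (4.39 to 4.89) and the lowest treated one (5.10) lay below their array medians, so its difference rests on a dim signal. Of 23 measured genes of 25 of the pentose phosphate pathway, glycogen and pyruvate entry, 1 fell in HL-60 at 3 h, a count near the 2.95% of all probe sets called lower there, and none was called in the other 3 comparisons. PDP1, the phosphatase that opens pyruvate dehydrogenase, read 8.07, 8.44 and 8.29 with CIGB-300, against 8.84, 8.90 and 9.01 in untreated cells. It fell by 0.65 (adjusted p = 0.0012). Of 14 measured genes of 16 of the HIF machinery, CITED2, which competes with HIF1A for its coactivator, rose in HL-60 cells at 30 min by 0.40 ± 0.0808 (adjusted p = 0.0302), where 0.345% of all probe sets were called in either direction. ARNT, the constitutive partner of HIF1A, fell in HL-60 cells at 3 h by 0.31 (adjusted p = 0.0337), 1 of 14 beside the 2.95% of all probe sets. Neither list gave a call in OCI-AML3.

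A list of other hypoxia-induced genes, 34 measured of 36, held more calls in HL-60 at 3 h, 7 higher (2.62% of all probe sets) and 0 lower (2.95%), with a median log2 difference of 0.102, against -0.029 over all probe sets. For OCI-AML3 at 3 h, 2 were called higher and 2 lower, where 0.974% of all probe sets were called in either direction, and the median was -0.005, against 0.001. In HL-60 at 30 min 1, VEGFA, was called (0.345% of all probe sets), and in OCI-AML3 at 30 min 0 of 34 (0.182%). Many genes of this list also respond to signals other than low oxygen.

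BHLHE41, a repressor of the circadian clock, read 7.55, 7.20 and 7.08 in HL-60 at 3 h with CIGB-300, against 4.93, 4.35 and 4.94 in untreated cells. It rose by 2.53 ± 0.256 (adjusted p = 2.37e-06), and its effect exceeded that in OCI-AML3 by 2.17 ± 0.361 (adjusted p = 0.00274). The untreated HL-60 arrays at 3 h and all OCI-AML3 arrays, at 3.52 to 4.48, lay below the median of their arrays, so the sizes of these 2 BHLHE41 differences rest on a dim signal. VEGFA, the angiogenic growth factor, rose by 0.55 ± 0.107 in 30 min HL-60 cells (adjusted p = 0.0267) and by 1.14 ± 0.107 in 3 h ones. At 3 h HL-60 arrays read 10.94, 10.76 and 10.98 with CIGB-300, against 9.82, 9.68 and 9.77 in untreated cells. VEGFA of OCI-AML3 cells at 3 h rose as well, by 0.53 ± 0.107 (adjusted p = 0.0207), with 8.45 to 8.60 in treated cells, against 7.87 to 8.18 in untreated cells. Untreated OCI-AML3 cells at 3 h had themselves fallen below those at 30 min by 0.78 (adjusted p = 0.00413), so the treated arrays at 3 h lay below both untreated arrays at 30 min (8.78 and 8.82).

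CXCR4, the receptor of the marrow chemokine CXCL12, was called in opposite directions. It rose by 0.35 ± 0.0727 in HL-60 at 3 h, with 11.85, 11.72 and 11.81 in treated cells, against 11.51, 11.39 and 11.43 in untreated cells. OCI-AML3 cells went the other way and at 3 h CXCR4 fell by 0.35, with 11.34, 11.28 and 11.37 in treated cells, against 11.64, 11.65 and 11.74 in untreated cells. The effects differed by 0.69 ± 0.103 (adjusted p = 0.000845). STC1, a secreted glycoprotein hormone, rose by 1.09 ± 0.226 (adjusted p = 0.0235) in OCI-AML3 cells of 3 h, with 7.02, 7.04 and 7.17 in treated cells, against 5.81, 6.02 and 6.13 in untreated cells. In HL-60 at 3 h STC1 differed by -0.06. MXI1, an antagonist of MYC, fell by 0.39 (adjusted p = 0.0328) in OCI-AML3 at 3 h. TMEM45A rose by 1.17 ± 0.248 in HL-60 at 3 h (adjusted p = 0.00693), at 4.97, 4.97 and 5.46 with CIGB-300, against 4.11, 4.19 and 3.59 in untreated cells, with every array but the brightest treated one below its array median.

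HMOX1 (heme oxygenase 1) rose in HL-60 at 3 h by 1.01 ± 0.251 (adjusted p = 0.0215), with 5.69, 5.83 and 5.59 in treated cells, against 4.94, 4.60 and 4.52 in untreated cells, the untreated arrays being dim. In OCI-AML3 at 3 h HMOX1 differed by 0.92 ± 0.251, a similar size that was not called (adjusted p = 0.11). The remaining calls of the list of other hypoxia-induced genes in HL-60 at 3 h, named after their values were seen, were DDIT4 and BHLHE40. DDIT4, an inhibitor of mTORC1, averaged 6.84 with CIGB-300 and 6.11 in untreated HL-60 cells at 3 h (0.73 ± 0.190, adjusted p = 0.0272), and in OCI-AML3 at 3 h 7.30 with CIGB-300 and 6.54 in untreated cells (0.76 ± 0.190, adjusted p = 0.0735). At 30 min the DDIT4 difference in HL-60 was -0.74 ± 0.190 (adjusted p = 0.163), and the effect in HL-60 at 3 h exceeded that at 30 min by 1.48 ± 0.268 (adjusted p = 0.00588). BHLHE40, a relative of BHLHE41, was higher with CIGB-300 by 0.38 ± 0.106 in HL-60 at 3 h (adjusted p = 0.0436), at 8.57, 8.49 and 8.61, against 8.10, 8.29 and 8.15 in untreated cells. Untreated HL-60 cells at 3 h had themselves fallen below those at 30 min by 0.99 (adjusted p = 0.000161), so the treated BHLHE40 arrays at 3 h lay below all untreated arrays at 30 min (9.24, 9.16 and 9.10).

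**Figure D3:**
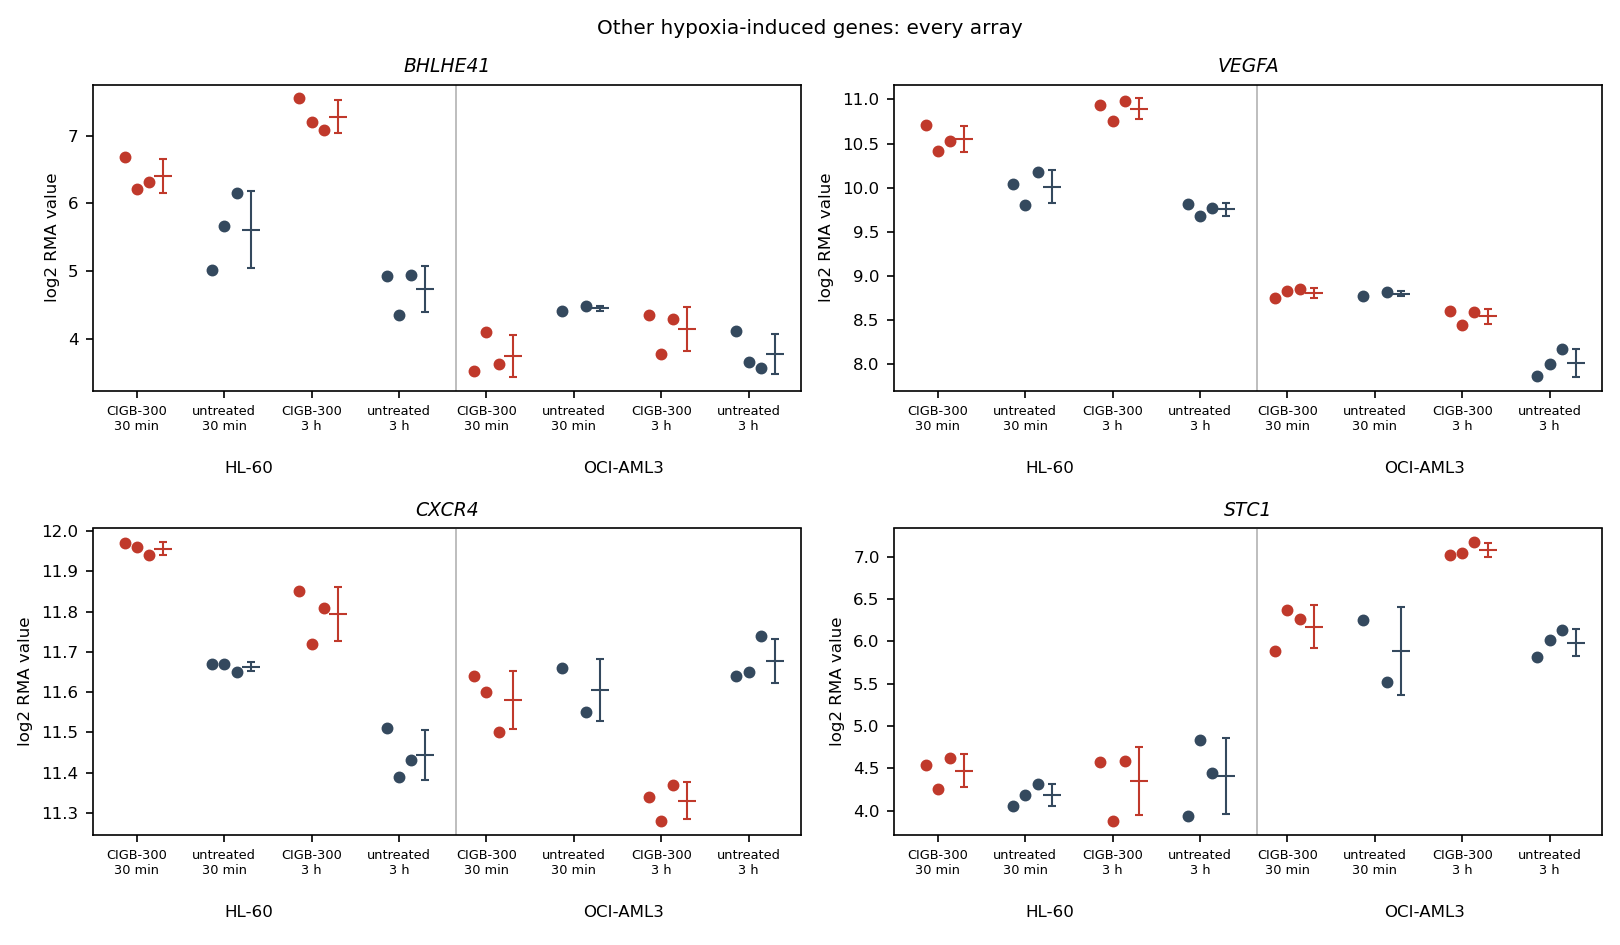
Log2 level on every array of 4 further hypoxia-induced genes, with CIGB-300 (red) and untreated (dark), group means and SD as bars, HL-60 left and OCI-AML3 right of the line. BHLHE41 stands highest in HL-60 at 3 h with CIGB-300, and CXCR4 lies above untreated cells there but below them in OCI-AML3 at 3 h; the level axes do not start at 0.

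In untreated cells, none of the 31 genes differed between 3 h and 30 min at an adjusted p under 0.05, in HL-60 (limma, 0.914% of all probe sets called) or in OCI-AML3 (0.779%). At an unadjusted p under 0.05 there were 4 in HL-60 (11.6% of all probe sets) and 6 in OCI-AML3 (11.6%), and 0 met the thresholds of the study (1.5% of all probe sets in HL-60, 2.01% in OCI-AML3). Arrays did not overlap for 4 genes in HL-60 (17.5% of all probe sets) and for 15 in OCI-AML3 (28.7%, with 2 arrays at 30 min). Negative differences were common, with 21 of the 31 genes below 0 in HL-60 and 21 in OCI-AML3. SLC2A1, NDRG1 and BNIP3 were among the genes below 0 in both lines, and their differences did not pass the test. SLC2A1 read 8.89, 8.94 and 8.52 at 3 h, against 9.16, 9.31 and 9.21 at 30 min in untreated HL-60 cells, a difference of -0.45 ± 0.122 (adjusted p = 0.102), and in OCI-AML3 the SLC2A1 difference was -0.42 ± 0.137 (adjusted p = 0.179). NDRG1, a stress-induced growth regulator, differed by -0.37 ± 0.0918 in HL-60 (adjusted p = 0.0636) and by -0.31 ± 0.103 in OCI-AML3 (adjusted p = 0.193). BNIP3 differed by -0.32 ± 0.122 in untreated HL-60 cells (adjusted p = 0.285), and by -0.38 ± 0.137 in OCI-AML3 (adjusted p = 0.242). With trend and robust variance settings, and likewise with dim probe sets left out, SLC2A1, SLC2A3 and NDRG1 were called in HL-60, and the filter also called HIF1A in OCI-AML3.

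The larger contrast was between the lines themselves. Untreated HL-60 cells differed from untreated OCI-AML3 cells in 18 of 31 genes at 30 min, 7 higher (17.5% of all probe sets) and 11 lower (17.1%) in HL-60, or 58.1% against 34.6% of all probe sets. At 3 h it was 22 genes, 8 higher (20.1%) and 14 lower (18.8%) in HL-60, or 71.0% against 38.9%. The thresholds of the study were met by 10 genes at 30 min (24.1% of all probe sets) and by 11 at 3 h (25.0%). Among the brighter probe sets, those with a mean at or above the median of all, the shares were 19 of 28 genes (67.9%) against 61.2% at 30 min, and 21 of 28 (75.0%) against 64.1% at 3 h, so the gap to the background was smaller among brighter probe sets. Arrays of the lines did not overlap for 24 genes at each time, against 55.3% and 47.6% of all probe sets. The median absolute log2 difference was 0.489 for the set and 0.305 for all probe sets at 30 min, and 0.435 and 0.31 at 3 h. Array medians differ between the lines, and centring each array on its median moved the median difference of all probe sets to 0.182 from 0.053 at 30 min and to 0.207 from 0.075 at 3 h. The share of higher calls over all probe sets moved to 63.5% from 50.7% and to 65.6% from 51.7%, and 19 genes of the set were then called at each time, 9 higher and 10 lower in HL-60. Only genes without a call changed sign, GAPDH, ENO2 and PKM at 30 min and PFKL, ALDOA, GAPDH, PGK1 and ANKRD37 at 3 h.

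Calls between the lines were spread over all roles at 3 h, and no test compared the roles. In upper glycolysis 8 of 10 genes were called at each time, in the hypoxia targets 6 of 7, in oxygen sensing 2 of 3 and in lower glycolysis 1 of 6. Of the 2 glucose carriers 1 was called at 30 min and 2 at 3 h, and of the 3 lactate and pyruvate genes 0 at 30 min and 3 at 3 h. Beside these counts, the share called was 34.6% of all probe sets at 30 min and 38.9% at 3 h. Among the brighter probe sets it was 61.2% and 64.1%. Of the genes called, 13 of 18 at 30 min and 14 of 22 at 3 h held in every setting that tested them by the adjusted p. Those that did not were HK2, GPI, TPI1, BNIP3 and KDM3A at 30 min and SLC2A1, HK2, TPI1, LDHA, LDHB, PDK1, BNIP3 and KDM3A at 3 h. GPI at 30 min, and BNIP3 and KDM3A at 3 h, lost the call only with the replicate block, which compared the lines at replicate 1. The thresholds of the study, counted apart, were not met by PFKP, PFKFB3 and P4HA1 among the 13, nor by these and HIF1A among the 14. Isozymes of the same step differed unequally. ALDOC, an aldolase best known from brain, was the most divergent, with 5.82, 5.55 and 5.82 in HL-60 at 3 h, against 8.45, 8.33 and 8.50 in OCI-AML3. The differences of -2.98 ± 0.228 at 30 min and -2.70 ± 0.204 at 3 h made it 7.9-fold and 6.48-fold lower in HL-60 (adjusted p = 3.21e-09 and 2.16e-09). The common aldolase ALDOA differed by -0.02 ± 0.0760 at 3 h (adjusted p = 0.836), with a 95% confidence interval of -0.18 to 0.13.

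PFKM, the muscle form of phosphofructokinase, read 5.92, 5.79 and 6.03 at 3 h in HL-60 without treatment, against 7.25, 7.35 and 7.31 in OCI-AML3. It was lower in HL-60 by -1.39 ± 0.185 on the log2 scale (adjusted p = 4.53e-06), and by -1.52 ± 0.207 at 30 min. PFKP was lower too, by -0.56 ± 0.0806 at 3 h, whereas PFKL, the liver form, differed by -0.07 ± 0.0896 (adjusted p = 0.598). The hexokinases split by direction. HK1 read 6.12, 5.81 and 6.55 in HL-60 at 3 h, against 7.91, 7.45 and 7.71 in OCI-AML3, a difference of -1.53 ± 0.191 (adjusted p = 2.12e-06). HK2 read 8.10, 8.41 and 8.31 in HL-60, against 7.88, 7.56 and 8.04 in OCI-AML3, and was higher in HL-60 by 0.45 ± 0.116 (adjusted p = 0.00419), a call lost with only the compared arrays fitted. GPI, the next enzyme, was higher in HL-60 by 0.60 ± 0.0914, with 11.63, 11.67 and 11.68, against 11.22, 11.02 and 10.94 in OCI-AML3.

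In the lower pathway PGAM1, a phosphoglycerate mutase, was the only gene called at both times, at 11.17, 11.22 and 11.22 in HL-60 at 3 h, against 11.83, 11.76 and 11.89 in OCI-AML3 (difference -0.62 ± 0.0699). GAPDH, PGK1, ENO1, ENO2 and PKM were called at neither time. This depended on the setting for ENO1, which was called at both times with arrays centred on their median and at 30 min also with trend and robust variance or with dim probe sets left out, and for GAPDH, which was called at 3 h with trend and robust variance or with the quantile normalization repeated. LDHA and LDHB were lower in HL-60 at 3 h by -0.27 ± 0.0804 and -0.22 ± 0.0709 (adjusted p = 0.0117 and 0.0170), and neither was called at 30 min. Both calls were lost with arrays centred on their median and with only the compared arrays fitted, that of LDHA also without untreated OCI-AML3 replicate 2, and that of LDHB without untreated HL-60 replicate 2 or untreated OCI-AML3 replicate 3. PDK1 was called higher in HL-60 at 3 h by 0.28 ± 0.102 although its arrays overlapped, and this call was lost with only the compared arrays fitted and in 4 of 6 fits that left out an array (untreated HL-60 replicates 2 and 3, untreated OCI-AML3 replicates 1 and 2). Of the carriers, SLC2A3 was lower in untreated HL-60 cells by -0.67 ± 0.0965 at 30 min and -0.93 ± 0.0863 at 3 h, and SLC2A1 by -0.32 ± 0.122 at 3 h. The SLC2A1 call (adjusted p = 0.0449) was lost with only the compared arrays fitted, with arrays centred or normalized again, and without untreated HL-60 replicate 3 or untreated OCI-AML3 replicate 1 or 2. After 3 h with CIGB-300, SLC2A3 averaged 9.37 ± 0.11 in HL-60 and 8.96 ± 0.09 in OCI-AML3 (SD, n = 3 each), so the order of the lines was the reverse of that in untreated cells, 7.59 ± 0.07 in HL-60 and 8.52 ± 0.03 in OCI-AML3.

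**Figure D4:**
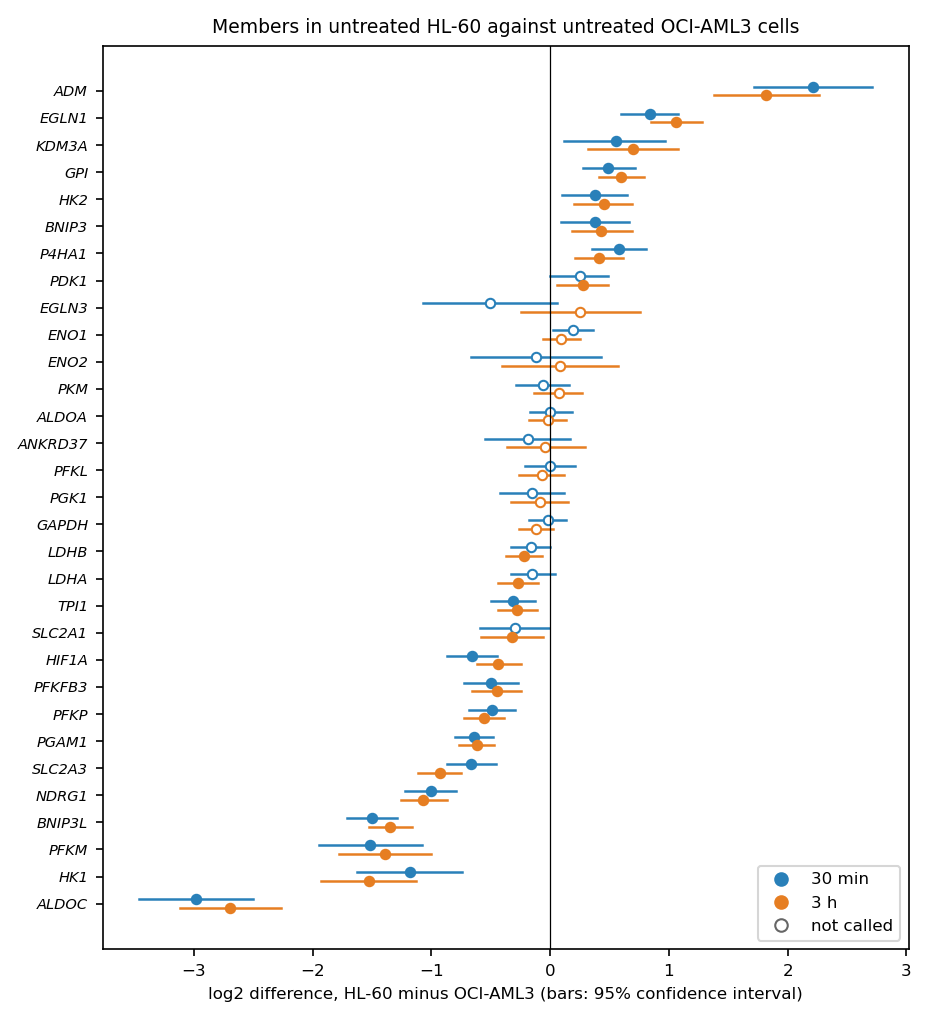
Log2 difference of the 31 genes between untreated HL-60 and untreated OCI-AML3 cells, HL-60 minus OCI-AML3, at both times (blue 30 min, orange 3 h), with 95% confidence intervals and open points for genes that were not called. ADM (2.21 and 1.82) stands at the top and ALDOC (-2.98 and -2.70) at the bottom.

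The sensors and targets split as well. HIF1A was lower in HL-60 by -0.66 ± 0.0997 at 30 min, with 8.36, 8.45 and 8.28 in HL-60, against 9.09 and 8.95 in OCI-AML3, and by -0.44 ± 0.0892 at 3 h. EGLN1 was higher in HL-60 by 0.84 ± 0.114 at 30 min and 1.06 ± 0.102 at 3 h, where it averaged 8.09 ± 0.14 in HL-60 and 7.02 ± 0.09 in OCI-AML3 (SD, n = 3 each). The hydroxylase and its substrate thus stood in opposite order in the lines. EGLN3 was called at neither time.

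Among the targets, the BNIP3 pair stood in opposite order. BNIP3L read 9.72, 9.67 and 9.61 at 3 h in untreated HL-60, against 10.89, 11.00 and 11.14 in OCI-AML3, lower by -1.35 ± 0.0897 (adjusted p = 3.51e-10). BNIP3 was higher in HL-60 by 0.43 ± 0.122, with 9.19, 9.08 and 9.14, against 8.88, 8.69 and 8.54 in OCI-AML3 at 3 h. At 30 min its difference of 0.38 ± 0.137 (adjusted p = 0.0386) lost the call whenever any of the 5 arrays was left out. ADM was higher in HL-60 by 2.21 ± 0.235 at 30 min and 1.82 ± 0.210 at 3 h, and NDRG1 was 2.0-fold lower at 30 min and lower by -1.07 ± 0.0918 at 3 h, with 8.95, 8.91 and 8.83 in HL-60 at 3 h, against 9.92, 9.87 and 10.10 in OCI-AML3. P4HA1, a collagen prolyl hydroxylase subunit, and KDM3A were higher in HL-60 at 3 h by 0.41 ± 0.0966 and 0.70 ± 0.180. ANKRD37 was called at neither time.

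**Figure D5:**
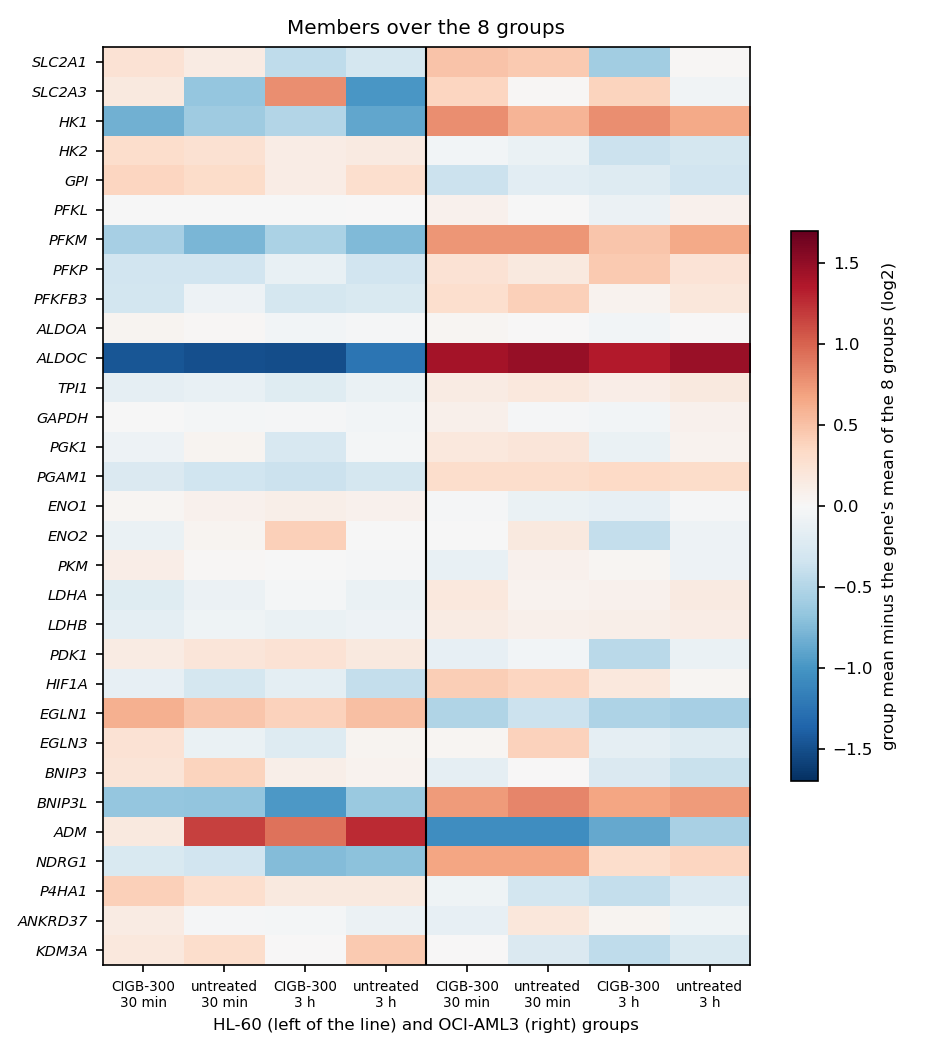
Group means of the 31 genes minus each gene's mean over the 8 groups, on the log2 scale, with red above and blue below that mean; HL-60 groups lie left of the line and OCI-AML3 groups right of it. Columns of 1 line resemble each other in ALDOC, HK1, PFKM, BNIP3L and ADM, and the row of SLC2A3 changes between CIGB-300 and untreated columns of HL-60.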

How the data were processed

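Log2 expression values of 23 arrays in 8 groups, deposited by the authors, were used as deposited. The authors made them with RMA (version not stated), that is, background correction, quantile normalization and robust summaries of probe sets, and they analysed the arrays with limma (version not stated). They left out replicate 1 of untreated OCI-AML3 cells at 30 min as an outlier. Of 27189 features, 5741 control features were left out; 20893 probe sets on a locus and 555 unplaced ones were tested. The platform annotation gave 1 symbol to 17709 of them and none to 3739. Quantile normalization sets aside any change of total RNA per cell.

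All 23 arrays entered a single model with a mean for each group (limma 3.58.1, R 4.3.3, eBayes at its defaults), and 12 contrasts were taken: 4 of CIGB-300 against time-matched untreated cells, their differences between lines and between times, untreated cells at 3 h against 30 min, and untreated HL-60 against untreated OCI-AML3. In each contrast the p-values of 21448 probe sets received the Benjamini-Hochberg adjustment, and the threshold was 0.05. The fit has no block, and p-values measure the spread between the arrays of a group; their number limits the precision. No 2 arrays were duplicates (highest r between arrays 0.992427). Summaries, promoter counts and figures were made in Python 3.11.15 (pandas 2.3.3; matplotlib 3.10.9). The fit was tested on simulated data.

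The genes, the 4 further lists, the markers and the tests were chosen with earlier results of these data known. Values of single arrays are given for genes of the set called with CIGB-300, in the comparisons called, and for some isozymes and larger differences elsewhere. Other values are given as group means, ranges or differences. Of the further lists up to 4 called genes per comparison are named, and DDIT4 and BHLHE40 were added. Alternatives changed the call rule, the arrays fitted, the variance model, the normalization and the weighting of arrays, added a replicate block or a filter on dim probe sets, and left out each array in turn. Where an arm was left with 1 array, that array was given the spread of the other groups.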

Additional observations from a re-analysis of the deposited data

Results flagged for a closer look

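The effect of CIGB-300 on SLC2A3 differed between the lines at 3 h by 1.33 on the log2 scale, larger in HL-60, by limma's test of the difference itself (adjusted p = 2.35e-06). In HL-60 it was larger at 3 h than at 30 min by 0.96 (adjusted p = 0.000162). Treated arrays lay above untreated arrays in all 4 comparisons. The part of its near-identical copy SLC2A14, whose probe set gave a difference between lines of 1.29 at 3 h, in these values was not tested.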

How the results depend on the processing

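Beside the 2 genes called in HL-60 at 30 min, 1 was called with only HL-60 arrays, with the replicate block and with dim probe sets left out (ADM was then not tested), and 1 to 2 with each array left out. Of the 2 in HL-60 at 3 h, 1 was called by the thresholds of the study and 1 with only HL-60 arrays, and trend and robust variance called 3, PFKP among them; with each array left out it was 1 to 2. Of the 2 in OCI-AML3 at 3 h, the thresholds of the study gave 1, only OCI-AML3 arrays 0, and leaving out each array 0 to 2. In OCI-AML3 at 30 min every setting gave 0. The thresholds of the study gave 1 for the difference between lines at 30 min and 1 for the difference between times in OCI-AML3, where the count was 0. In untreated cells at 3 h against 30 min, HL-60 gave 3 with trend and robust variance and 3 without dim probe sets, and OCI-AML3 1 without dim probe sets. Between untreated lines, the thresholds of the study gave 10 at 30 min and 11 at 3 h, and leaving out arrays 15 to 17 and 19 to 22. No gene of the set called with CIGB-300 reversed its direction under any setting. Genes of the further lists were not examined in this way. Causes were not tested.

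The replicate numbers did not pair the arrays: after group means were removed, r of the 33 same-numbered pairs of arrays ran from -0.0436 to 0.081, with 0 over 0.1. With the replicate block, 1 gene was called in HL-60 at 30 min, where ADM had an adjusted p of 0.0917, and no other count moved by over 1.5 times. The block was set within each line, so between untreated lines it compared fitted levels of replicate 1, not block-adjusted means of the lines. Untreated OCI-AML3 cells at 30 min had no replicate 1, so their level there came from the fit alone. In that setting 14 genes were called at 30 min, without HK2, GPI, TPI1, BNIP3 and KDM3A and with EGLN3. At 3 h it was 16, without SLC2A1, TPI1, LDHB, PDK1, BNIP3 and KDM3A. These changes cannot show how the calls between lines depend on the pairing. Centring or repeating the quantile normalization left the same genes of the set called with CIGB-300. No gene had several probe sets, so their mean was not run. ENO2, EGLN3 and ADM, and of the further genes BHLHE41, TMEM45A and HMOX1, lay in the dimmer part of the array, as did SLC2A6 in untreated HL-60 cells. This limits what the values of these genes show.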
